A study of Mus musculus with 23 samples.

Results

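The Cyp4a fatty acid omega-hydroxylases were followed in a liver RNA-seq series of 23 male mice. The 6 members were Cyp4a10, Cyp4a14, Cyp4a31, Cyp4a32, Cyp4a12a and Cyp4a12b, taken by gene symbol and transcript identifier from a count table that holds 52327 named genes. The study crossed diet with genotype: 3 Gabrg2tm1Wul/J +/+ mice and 5 Gabrg2tm1Wul/J F77I/F77I mice received a regular chow, and 9 +/+ and 6 F77I/F77I mice received a high-fat chow from the same maker (Safe). F77I is a germline point mutation of the gamma2 subunit of the GABA-A receptor, carried in every tissue, and the mice of the study were 8 to 12 weeks old. The count table names none of its 23 columns, so no liver could be given to a diet or a genotype, no group was compared, and livers 1 to 23 are numbers given here in order of rising total count.

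Cyp4a proteins are cytochrome P450 monooxygenases of the endoplasmic reticulum that add a hydroxyl group to the end carbon of fatty acids, the first step of omega-oxidation to dicarboxylic acids, which peroxisomes then shorten. Cyp4a10, Cyp4a14, Cyp4a31 and Cyp4a32 are known in mouse liver as target genes of the fatty acid receptor PPARalpha. Cyp4a12a and Cyp4a12b are known for their higher expression in males, and Cyp4a12a also for turning arachidonic acid into the vasoactive lipid 20-HETE.

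All 6 genes lie within 323462 bases of chromosome 4 of GRCm39, from 115156243 to 115479704. Cyp4a12a (ENSMUSG00000066071.8, 115156243 to 115190012) and Cyp4a12b (ENSMUSG00000078597.4, 115268820 to 115296235) come first on the forward strand. Cyp4a14 (ENSMUSG00000028715.4, 115343397 to 115353344) follows on the reverse strand. Cyp4a10 (ENSMUSG00000066072.15, 115375461 to 115390849), Cyp4a31 (ENSMUSG00000028712.14, 115420818 to 115436212) and Cyp4a32 (ENSMUSG00000063929.8, 115458134 to 115479704) complete the row on the forward strand. The proteins of their transcripts have 507 to 509 residues.

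The members are alike enough that reads can be shared between them. The coding sequences of Cyp4a12a and Cyp4a12b were 98.5% identical, with 23 differences over 1527 aligned bases. Cyp4a10 was 96.6% identical to Cyp4a31 and 97.2% to Cyp4a32, and Cyp4a31 was 96.0% identical to Cyp4a32. Cyp4a14 stood further off, at 75% to 76.0% identity with each other member. The stretch that codes for the heme-binding cysteine, the residue that holds the iron of every P450, keeps the near-identical members together. There, however, Cyp4a14 was closer to Cyp4a12a and Cyp4a12b than to Cyp4a10, Cyp4a31 and Cyp4a32. The stretch is given for the 6 members, with capitals at the bases where any member differs, and the cysteine codon tgc is bases 5 to 7.

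Cyp4a10 (exon 12, chr4:115389728-115389787, forward): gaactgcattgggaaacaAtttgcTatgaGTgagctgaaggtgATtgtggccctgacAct
Cyp4a31 (exon 12, chr4:115435133-115435192, forward): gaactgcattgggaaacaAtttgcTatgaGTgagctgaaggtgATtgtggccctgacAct
Cyp4a32 (exon 12, chr4:115478631-115478690, forward): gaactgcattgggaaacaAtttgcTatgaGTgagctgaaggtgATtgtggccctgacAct
Cyp4a14 (exon 12, chr4:115344449-115344508, reverse): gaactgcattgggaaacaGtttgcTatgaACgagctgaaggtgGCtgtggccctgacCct
Cyp4a12a (exon 12, chr4:115189031-115189090, forward): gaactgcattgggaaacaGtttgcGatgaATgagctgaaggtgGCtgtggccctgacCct
Cyp4a12b (exon 12, chr4:115295254-115295313, forward): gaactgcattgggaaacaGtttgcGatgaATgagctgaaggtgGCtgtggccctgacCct

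In these 60 bases Cyp4a10, Cyp4a31 and Cyp4a32 were the same, and so were Cyp4a12a and Cyp4a12b. A read that is identical in several genes cannot be given to 1 of them. Over whole transcripts, however, only some windows of the sequenced read length were shared. Of the 150-base windows of the Cyp4a12a transcript, 25.6% occurred exactly in a transcript of another gene, and the gene was Cyp4a12b. The same share was 25.9% for Cyp4a12b, 4.69% for Cyp4a10, 4.15% for Cyp4a31, 7.97% for Cyp4a32 and 0% for Cyp4a14. The table sets entries without a unique alignment apart, 10.6% to 20.8% of all entries. Reads that fit Cyp4a12a and Cyp4a12b equally well may be among them and so be missing from both genes. The levels of the pair are therefore uncertain and may be too low, and by how much was not examined. The places where the pair can be told apart are few, and the 60 coding bases with the most differences, in exon 6, hold 4 (capitals).

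Cyp4a12a (chr4:115183825-115183884, forward): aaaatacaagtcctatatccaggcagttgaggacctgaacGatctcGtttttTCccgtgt
Cyp4a12b (chr4:115290078-115290137, forward): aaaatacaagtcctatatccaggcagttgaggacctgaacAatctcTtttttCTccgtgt

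Counting per transcript set a second limit. The table counts reads for each transcript, and a read that fits more than 1 transcript was put in an ambiguous class that held 25.2% to 29.2% of all entries. Cyp4a12a and Cyp4a12b have 1 listed transcript each, so all of their 2422 and 2395 exon bases belong to exactly 1 listed transcript. Cyp4a14 has 2 listed transcripts and 2206 such bases of 2606 (84.7%), and Cyp4a32 has 2 and 806 of 1536 (52.5%). Cyp4a10 has 2 listed transcripts that differ by a single stretch, which leaves 30 such bases of 2109 (1.42%). Cyp4a31 has 4 and keeps 17 of 2537 (0.670%). The stretches are shown with the bases held by exactly 1 listed transcript in capitals and 15 bases on either side. Both lie in coding sequence, in exon 3 of Cyp4a10 and exon 11 of Cyp4a31, and both are far shorter than a read.

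Cyp4a10 (capitals at chr4:115377464-115377493, forward): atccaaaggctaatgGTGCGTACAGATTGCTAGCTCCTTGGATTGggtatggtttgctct
Cyp4a31 (capitals at chr4:115432087-115432103, forward): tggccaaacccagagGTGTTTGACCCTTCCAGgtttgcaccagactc

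**Figure D1:**
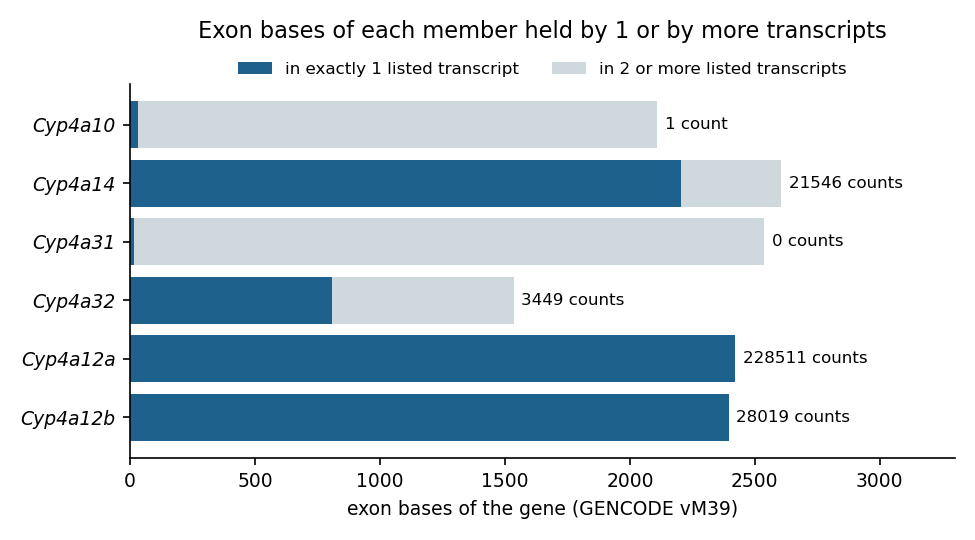
Exon bases of each member (horizontal axis) held by exactly 1 listed transcript (dark) or by 2 or more (pale), with the counts summed over 23 livers beside each bar. Cyp4a10 and Cyp4a31 have 30 and 17 bases of the first kind and 1 and 0 counts.

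Cyp4a10 had 1 count over the 23 livers, in liver 10, and Cyp4a31 had 0 counts in every liver. These values describe the few bases that could be counted and do not give the level of either gene. A count of 0 allows up to 3 counts, which was 0.394 to 0.618 CPM (counts scaled to 1000000 named-gene counts per liver) at the depth of these livers, for reads that could be counted only. Across the table, 3.69% of the 52099 genes matched to the annotation had under 2% of their exon bases in exactly 1 listed transcript. The other 4 members could be measured. The part of Cyp4a32 that could be counted includes sequence shared with Cyp4a10 and Cyp4a31, such as the stretch around the cysteine, and sequence that differs from both. Its 60 coding bases with the most differences, in exon 2, are shown with capitals where the 3 genes differ.

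Cyp4a32 (chr4:115459467-115459526, forward): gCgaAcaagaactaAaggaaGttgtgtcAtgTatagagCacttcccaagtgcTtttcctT
Cyp4a10 (chr4:115376837-115376896, forward): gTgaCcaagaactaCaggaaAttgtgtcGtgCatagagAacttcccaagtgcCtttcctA
Cyp4a31 (chr4:115422217-115422276, forward): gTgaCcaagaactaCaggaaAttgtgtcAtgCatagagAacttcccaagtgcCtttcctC

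The libraries held 38870649 to 58525539 entries, of which 4856055 to 7621914 were counts given to a named gene. Levels are given as CPM of those counts and, between genes, as CPM per kilobase of exon (RPKM). The summed level of 5 hepatocyte markers (Alb, Apoa1, Ttr, Tat and Cps1) was 82669 to 146112 CPM, with none at 0. Of the 4 kidney markers, a tissue that also expresses Cyp4a genes, Umod, Slc12a1 and Kap were at 0 in every liver and the summed level was at most 0.342 CPM. Of the 4 adipocyte markers Lep and Cfd were at 0 in every liver, and the sum was at most 0.266 CPM. Several of these markers also have few countable bases, among them Kap with 51 of 707 and Cfd with 3 of 943. In bulk liver RNA, fewer cells of a type and less RNA per cell cannot be told apart.

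Among the members that could be measured, Cyp4a12a was the most abundant per kilobase in all 23 livers. Its level was 311 RPKM in the lowest liver, 680 at the median and 808 in the highest, and by median RPKM it ranked 94 of 52099 genes. Cyp4a12b followed with 39.1, 80.1 and 115 RPKM. Cyp4a14 had 0.152, 22.05 and 239 RPKM, and Cyp4a32 had 5.27, 15.5 and 29.99 RPKM. Cyp4a12b exceeded Cyp4a32 in 23 of 23 livers, so the order Cyp4a12a, Cyp4a12b, Cyp4a32 held in each. Per base held by exactly 1 listed transcript, Cyp4a12b exceeded Cyp4a32 in 22.

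Cyp4a14 took a different place in that order from liver to liver. It stood above Cyp4a12b in 7 livers, between Cyp4a12b and Cyp4a32 in 5 and below Cyp4a32 in 11. The neighbours Cyp4a14 and Cyp4a32 therefore did not differ beyond their spread over livers. With RPKM taken per base held by exactly 1 listed transcript, the median of Cyp4a32 was 29.5 and that of Cyp4a14 26.0, so the order of their medians depended on the length used. Cyp4a14 was above Cyp4a32 in 12 livers with the first length and in 10 with the second.

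**Figure D2:**
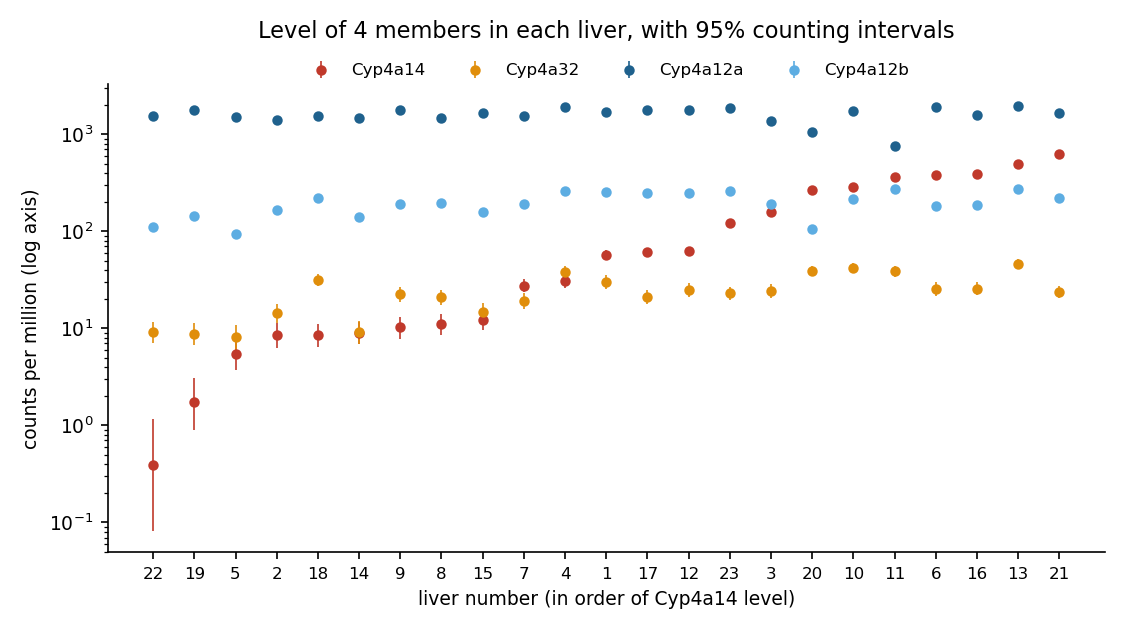
Level of the 4 measurable members in CPM (log axis) in each of 23 livers, ordered by Cyp4a14; bars are exact 95% Poisson intervals, which cover counting error only. Cyp4a14 runs from 0.396 to 622 CPM, whereas Cyp4a12a stays between 754 and 1956.

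The family sum was 1429 CPM in the lowest liver, 1955 at the median and 2769 in the highest. Cyp4a12a supplied 52.8% to 93.3% of these counts (median 84.3%) and Cyp4a12b 5.84% to 19.04% (median 9.98%). Cyp4a14 supplied 0.0236% in the liver where its share was lowest and 25.5% where it was highest, with a median of 2.82%. Cyp4a32 supplied 0.449% to 2.72%. Cyp4a10 and Cyp4a31 add next to nothing to the sum for the reason given above, so the sum is that of 4 members.

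Cyp4a14 varied most. It had 3 counts in liver 22 (0.396 CPM; exact 95% Poisson interval 0.0816 to 1.16) and 4680 in liver 21 (622 CPM), with a median of 57.5 CPM over the 23 livers. The highest value was 1572 times the lowest (exact 95% interval of the ratio 538 to 7625), and the upper quartile, 277 CPM, was 28.7 times the lower, 9.67 CPM. The bounds cover counting error only. The interval is wide because of the 3 counts, and without the highest and the lowest liver the ratio was 280. Of 1859 genes outside the family whose median lay within 2 times that of Cyp4a14 on either side, none had as large a quartile ratio and 1 had as large a ratio of highest to lowest. The medians of those genes were 1.20 for the quartile ratio and 1.74 for highest to lowest.

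Cyp4a32 varied far less on the same scale. It had 46 counts in liver 5 (8.10 CPM) and 277 in liver 13 (46.1 CPM), with a median of 23.8 CPM. The ratio was 5.69 (exact 95% interval 4.15 to 7.95) and the quartile ratio 1.82. Of 2481 genes of like level, 110 (4.43%) had a quartile ratio at least as large.

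The Cyp4a12 genes were steadier. Cyp4a12a was lowest in liver 11 (4426 counts, 754 CPM) and highest in liver 13 (11761 counts, 1956 CPM), with a median of 1646 CPM. Its quartile ratio was 1.20, which 66 of 100 genes of like level reached or passed. Livers 11 and 20 lay below the others, at 754 and 1056 CPM, and the next lowest liver had 1363. Cyp4a12b had 93.6 CPM in liver 5, 192 at the median and 276 in liver 13. Its quartile ratio of 1.54 was reached or passed by 61 of 826 genes of like level (7.38%).

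Over the 23 livers, Cyp4a14 and Cyp4a32 moved together. The Pearson r of log2(CPM + 1) was 0.758, Spearman's rho was 0.731, and r was 0.659 without the 2 livers farthest from the median of Cyp4a14. The livers belong to 4 groups that could not be told apart here, and every value of a liver shares its library, so the correlations are descriptions and carry no p-value. The 4 lowest values of Cyp4a32 (8.10 to 9.23 CPM) were in livers 5, 14, 19 and 22, where Cyp4a14 had 0.396 to 9.06 CPM.

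Cyp4a12b had a higher r with both than Cyp4a12a had, and the difference was not tested. Its r was 0.671 with Cyp4a32 (rho 0.598; 0.556 without livers 5 and 19, farthest from the median of Cyp4a32) and 0.504 with Cyp4a14 (rho 0.499; 0.364 without livers 19 and 22, farthest from the median of Cyp4a14). Liver 20 went against this, with the second lowest Cyp4a12b (106 CPM) at 265 CPM of Cyp4a14, and without it r was 0.875 with Cyp4a32 and 0.661 with Cyp4a14. For Cyp4a12a, r was -0.119 with Cyp4a14 (rho 0.201; -0.0899 without livers 19 and 22) and -0.0952 with Cyp4a32 (rho 0.165; -0.0767 without livers 5 and 19). Pearson and Spearman values differed in sign there. Without liver 11 both r were above 0, at 0.108 and 0.140.

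**Figure D3:**
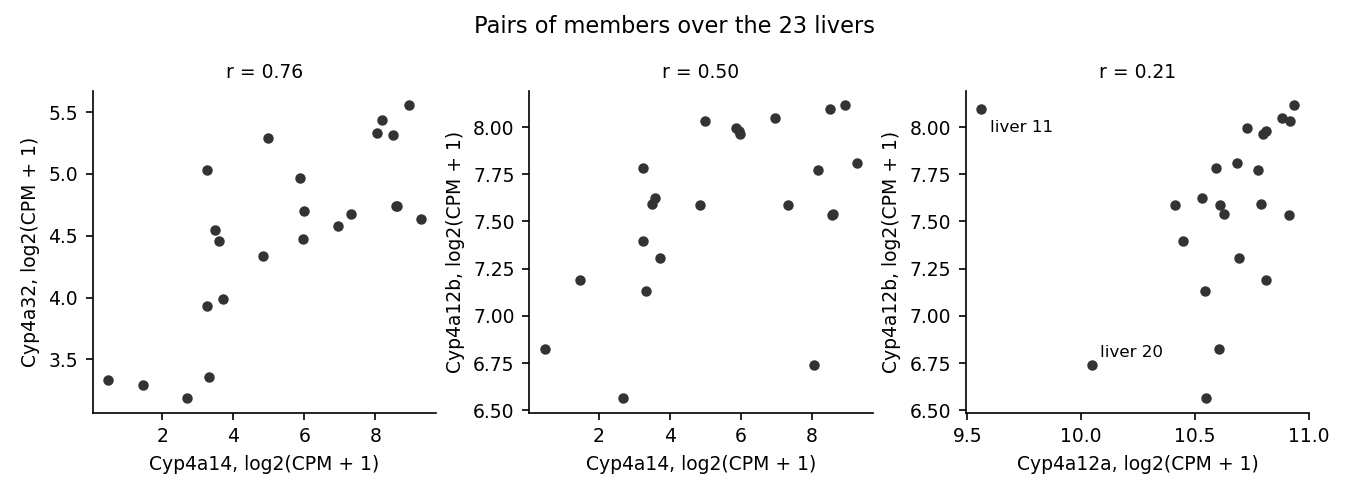
Pairs of members over 23 livers, log2(CPM + 1) on both axes, 1 point per liver, with Pearson r above each panel. Cyp4a32 rises with Cyp4a14 (r = 0.76), and livers 11 and 20 stand apart on the Cyp4a12a axis.

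The near-identical Cyp4a12a and Cyp4a12b were only loosely related over all livers. Their r was 0.210 (rho 0.422), 0.632 without liver 11 alone and 0.526 without the 2 livers farthest from the median of Cyp4a12a. Liver 11 had the lowest Cyp4a12a of the series and the second highest Cyp4a12b, 272 CPM. Cyp4a12b made up 26.5% of the pair in that liver (1597 of 6023 counts; 95% Wilson interval 25.4% to 27.6%). In the other livers it made up 5.89% to 13.05%, and the median over all 23 was 11.02%. The intervals of liver 11 and of every other liver were apart.

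**Figure D4:**
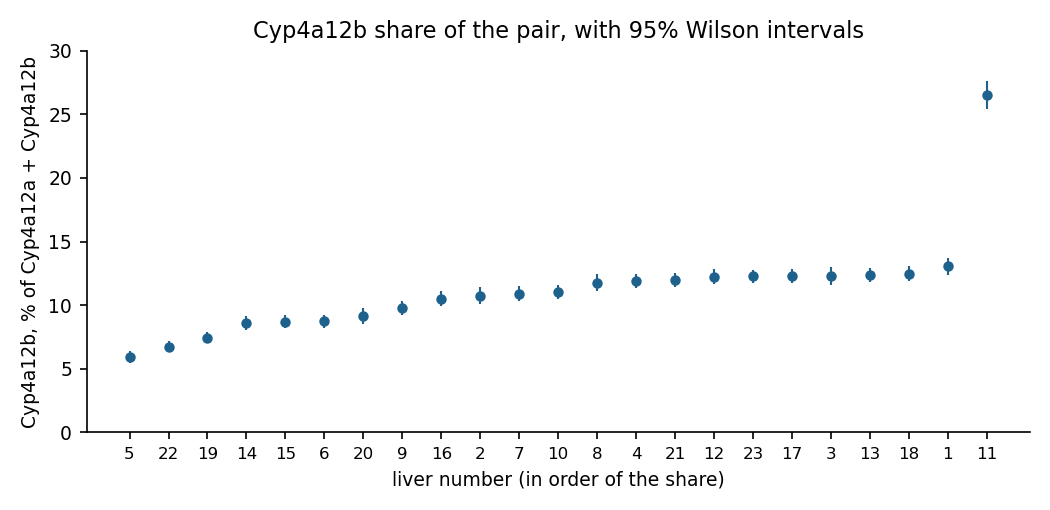
Cyp4a12b as a percentage of the counts of Cyp4a12a and Cyp4a12b in each liver, ordered by that share, with 95% Wilson intervals (counting error only). Liver 11 is at 26.5% and the next highest at 13.05%.

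By its number of extreme values liver 11 lay at the middle of the livers. It was the lowest or highest liver for 8.17% of 6340 genes outside the family with a median of at least 5 CPM, the median over livers being 8.17% and the range 4.12% to 22.4%. Of 53 listed genes at that level, 2 were lowest and 3 highest in it. The lowest were Cyp2f2, a P450 of periportal hepatocytes (838 CPM; median over livers 1358), and Ppard, a fatty acid receptor of the PPAR family (8.18 CPM; median 11.8). The highest were Cyp2e1, a pericentral P450 (41.4 CPM; median 20.9), Oat, a pericentral enzyme of ornithine breakdown (3146 CPM; median 2188), and Cyb5a, cytochrome b5 (26.2 CPM; median 18.9). Cyp2e1 had 20.5% of its exon bases in exactly 1 listed transcript. The other pericentral genes were not high in liver 11: from the lowest, Cyp1a2 ranked 3, Slc1a2 7, Glul 12 and Lgr5 14 of 23. Of the other periportal genes, Pck1 ranked 4, Hal 5, Ass1 8, Gls2 13 and Sds 14. Short of the extremes, liver 11 lay high for several lists: it ranked 16 to 22 of 23 from the lowest for the 11 genes of omega-oxidation and peroxisomal beta-oxidation, 21 to 23 for the 3 electron donors of P450 enzymes and 22 for Ppara, the PPARalpha gene. Whether these have a part in the share of Cyp4a12b was not tested.

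The share of Cyp4a12b in the pair also followed the other members. Its r was 0.572 with Cyp4a32 (rho 0.633; 0.655 without the 2 livers with the most distant shares) and 0.469 with Cyp4a14 (rho 0.478; 0.469 without them). The livers with the 3 lowest shares (numbers 5, 22 and 19, at 5.89% to 7.44%) were also the 3 with the lowest Cyp4a14, 0.396 to 5.46 CPM.

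Genes known to respond to PPARalpha in liver were then set beside each member. All 22 on the list were in the table and 18 reached a median of 5 CPM, while Angptl4, Hadha and Cidec lay below it and Txnip was at 0, with 3.55% of its exon bases in exactly 1 listed transcript. For Cyp4a14, r was above 0 for all 18, with a median of 0.734. Over all 6340 genes, r was above 0 for 59.7% and the median was 0.0960. An r of at least 0.7 was reached by 9 of the 18 (50.0%) and by 2.33% of all genes. The highest values were those of Acot2 and Acot1, thioesterases that split fatty acyl-CoA in mitochondria and cytosol (0.8998 and 0.8995; rho 0.888 and 0.906), and of Acadm, the medium-chain acyl-CoA dehydrogenase (0.884; rho 0.857).

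Their levels moved over a much smaller range than Cyp4a14 did. Acot2 ran from 2.11 to 21.02 CPM and Acot1 from 1.45 to 26.6 CPM. Acot1 and Acot2 are close paralogues, so reads that fit both may be missing from their counts, and their levels are uncertain as well. Ehhadh and Acaa1b, both peroxisomal beta-oxidation enzymes, had r of 0.844 and 0.854 with Cyp4a14 and ran from 499.6 to 1125 CPM and from 1586 to 6678 CPM. Cpt1a, which admits long-chain fatty acids to mitochondria, had 0.779.

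Other listed genes had a low r. Fgf21, a hormone secreted by liver, had an r of 0.139 with Cyp4a14 while its level ran from 1.03 to 25.97 CPM. Pdk4, a kinase that inhibits pyruvate dehydrogenase, had 0.2535.

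Cyp4a32 gave values of the same sign. Its r was above 0 for 18 of 18 (57.0% of all genes), with a median of 0.640 (all genes 0.0642). Of the 18, 7 (38.9%) reached 0.7, against 1.26% of all genes. Cyp4a12b had a median of 0.529 (all genes 0.0641) and was above 0 for 17 of 18 (57.8% of all genes). For it, 2 reached 0.7, against 0.457% of all genes. Vnn1, a pantetheinase, was among them (0.753). Cyp4a12a had a median of 0.0145 (all genes -0.0377), with 11 above 0 and 7 below. Of all 6340 genes, 43.4% were above 0 with Cyp4a12a and none reached 0.7. These values rested on livers 11 and 20, the 2 farthest from the median of Cyp4a12a. Without them 16 of the 18 were above 0 and 2 below, with a median of 0.436 (all genes 0.00976, with 51.0% above 0). For the other members, leaving out the 2 livers farthest from each one's own median gave list medians of 0.676 (Cyp4a14), 0.617 (Cyp4a32) and 0.677 (Cyp4a12b).

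**Figure D5:**
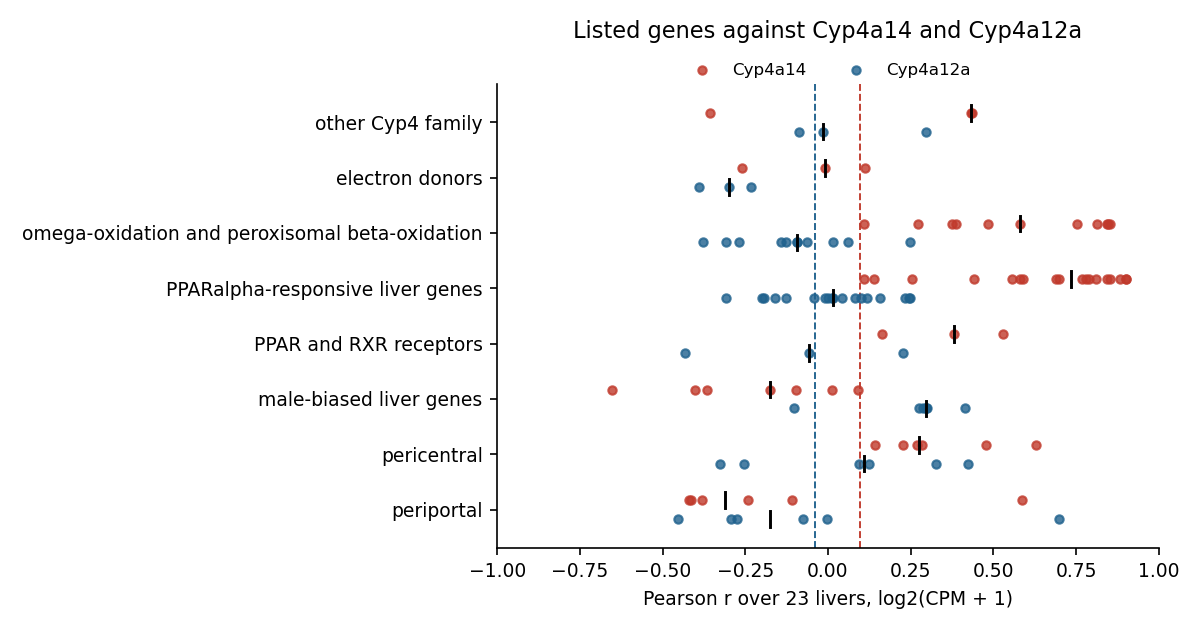
Pearson r over 23 livers of each listed gene with a median of at least 5 CPM against Cyp4a14 (red) and Cyp4a12a (blue), by list; black ticks are list medians and dashed lines the medians over all 6340 genes (0.0960 and -0.0377). The 18 PPARalpha-responsive genes lie above 0 for Cyp4a14 (59.7% of all genes do) and on both sides of 0 for Cyp4a12a over all livers. Without livers 11 and 20 (not drawn), however, 16 of the 18 are above 0 for Cyp4a12a, against 51.0% of all genes.

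The steps that follow omega-hydroxylation were looked at next. Of 14 genes of omega-oxidation and peroxisomal beta-oxidation, 11 reached 5 CPM, and r with Cyp4a14 was above 0 for all 11 (median 0.582), with 5 at 0.7 or more. Over all 6340 genes, r with Cyp4a14 was above 0 for 59.7% and at least 0.7 for 2.33%, with a median of 0.0960. Among the 11, Aldh3a2, the fatty aldehyde dehydrogenase that completes the dicarboxylic acid, had 0.814 and ran from 4.88 to 23.8 CPM. Adh4, an alcohol dehydrogenase, had 0.374. For Cyp4a12a the median over the same 11 genes was -0.0948, with 3 above 0 and 8 below, and without livers 11 and 20 it turned to 0.339, with 8 above 0 and 3 below. Over all genes, 43.4% were above 0 with Cyp4a12a in all livers and 51.0% without livers 11 and 20.

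The electron donors of P450 enzymes had low r with Cyp4a14. Por, the P450 reductase, ran from 4.42 to 13.6 CPM with an r of -0.00905, Cyb5a had 0.112 and Cyb5r3, its reductase, -0.259. For Cyp4a12a the 3 had -0.298, -0.232 and -0.390 over all livers, and -0.0485, 0.105 and -0.484 without livers 11 and 20. Among the receptors, Ppara ran from 21.1 to 65.8 CPM with an r of 0.380 to Cyp4a14 and -0.433 to Cyp4a12a, and the latter was -0.163 without livers 11 and 20 (rho over all livers -0.233). Rxra, its partner, had 0.528 and -0.0582, the latter 0.159 without the 2 livers, and Ppard had 0.163 and 0.227. Pparg was counted at up to 2.40 CPM, Rxrb at up to 2.22 and Rxrg at up to 0.341, with 33.0%, 22.8% and 18.6% of their exon bases in exactly 1 listed transcript, so these are not levels of the whole gene. The same limit applies to Por (32.5% of such bases), Cyb5r3 (48.5%), Ppara (38.1%) and Rxra (27.1%), for their levels and their r.

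Of 14 other Cyp4 genes in the table, 3 reached 5 CPM, and the counting limit of Cyp4a10 and Cyp4a31 touched others: Cyp4f14 and Cyp4f15 had 3.86% and 4.86% of their exon bases in exactly 1 listed transcript. Cyp4v3, another fatty acid omega-hydroxylase, had 1122 CPM at the median (883 to 1459), with r of 0.432 to Cyp4a14 and 0.633 to Cyp4a12b. Cyp4f17 had 15.4 CPM, with 0.434 and 0.560. Cyp4f13 had 9.97 CPM, with -0.356 and -0.0240. Cyp4a29, Cyp4a30b, Cyp4f39, Cyp4f40 and Cyp4x1 were at 0 in every liver, of which Cyp4f39 and Cyp4f40 had 17.6% and 18.3% of such bases.

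Male-biased liver genes were set beside the male-biased Cyp4a12 genes. Mup20, a major urinary protein, ran from 3416 to 12844 CPM, and 7 of the 8 listed genes reached 5 CPM. For Cyp4a12a, r was above 0 for 6 of the 7 (median 0.296) over all livers and for 5 (median 0.172) without livers 11 and 20. Among all 6340 genes, 43.4% (median -0.0377) and 51.0% (median 0.00976) were above 0. Ugt2b38, a glucuronosyltransferase, had 0.413 over all livers (rho 0.117) and -0.0857 without the 2. For Cyp4a14 the median was -0.177, with 2 above 0 and 5 below, and Ugt2b38 had -0.652, or -0.599 without livers 19 and 22. Among all genes, 59.7% were above 0 with Cyp4a14 and 40.3% below. None of the 11 female-biased genes reached a median of 5 CPM. Cyp2b9, a female-biased P450, had 0 CPM in the lowest liver, 0.433 at the median and 113 in the highest, and its r with Cyp4a14 was 0.753 (rho 0.868). Acot3, a peroxisomal thioesterase, ran from 0 to 7.01 CPM with 0.771 (rho 0.813). Both had few counts in most livers.

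Zonation markers were mixed, and over all 6340 genes r with Cyp4a14 was above 0 for 59.7% and below 0 for 40.3%. For Cyp4a14, r was above 0 for all 6 pericentral genes at 5 CPM (median 0.277), and below 0 for 5 of 6 periportal genes (median -0.311), the exception being Hal, the histidine ammonia-lyase (0.587). For Cyp4a12b the periportal genes were likewise below 0 in 5 of 6 (median -0.525; 42.2% of all genes were below 0). For Cyp4a12a the periportal median was -0.174, and 43.4% of all genes were above 0. Cyp2f2 alone of the periportal genes was above 0, at 0.698 over all livers and 0.338 without livers 11 and 20. Marker sums of Kupffer, endothelial, stellate and bile duct cells had r of -0.130 to 0.201 with Cyp4a14 and -0.315 to -0.0321 with Cyp4a12a. The hepatocyte sum had -0.0779 with Cyp4a14 and -0.460 with Cyp4a12b. The share of ambiguous entries had an r of 0.466 with Cyp4a14 (rho 0.410; 0.347 without the 2 livers farthest from its median) and -0.366 with Cyp4a12a, and the total count had -0.0398 with Cyp4a14. Their part in these levels was not tested.

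The genes most like each subset of the family were taken from all 6340 genes. The summed counts of Cyp4a10, Cyp4a14, Cyp4a31 and Cyp4a32 ran from 9.50 to 646 CPM. Over all livers, 21546 of these 24996 counts were of Cyp4a14, 3449 of Cyp4a32, 1 of Cyp4a10 and 0 of Cyp4a31. For this sum the first gene was Acot2 (r 0.916, rho 0.894, 0.912 without the 2 farthest livers). It was followed by Acat1, the mitochondrial acetoacetyl-CoA thiolase (0.893), Acadl and Acadm, the long-chain and medium-chain acyl-CoA dehydrogenases (0.892 and 0.890), Decr1, a dienoyl-CoA reductase (0.886), BC048644 (0.881), Hadh, a hydroxyacyl-CoA dehydrogenase (0.881), Myd88, an adaptor of innate immune receptors (0.870), Acot1 (0.868) and Hadhb-ps, a pseudogene (0.867). Without the 2 farthest livers each of the 10 stayed at 0.833 or above. A pseudogene can take reads of its parent gene, so the level of Hadhb-ps is uncertain.

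For the summed counts of Cyp4a12a and Cyp4a12b, 1026 to 2232 CPM, the highest r was 0.689, for the zinc finger gene Zfp992 (rho 0.760, 0.710 without the 2 farthest livers). The others were Cyp2f2 (0.643), Rexo2 (0.596), Bmp7 (0.596), 2610021A01Rik (0.595), Gm4735 (0.579), Gm13394 (0.579), Ces2c (0.566), Rabepk (0.562) and Nat8f5 (0.562). For 7 of the 10, r was below 0.5 without the 2 livers farthest from the median, so those relations rest on these livers, numbers 11 and 20. It was 0.295 for Cyp2f2, 0.368 for Bmp7 and -0.0240 for Gm4735, while Zfp992, Gm13394 (0.601) and Rexo2 (0.543) stayed above 0.5.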

How the data were processed

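The authors deposited 1 table of whole-number counts per Ensembl transcript, without normalization, for 23 columns with no names. The submitters' processing notes name HISAT2 2.2.1, HTSeq 0.13.5 and GRCm39. Not given in the sources used here were the annotation release, the counting mode and the strand setting. All 23 columns of values carry no sample name and were used as unlabelled livers only. Rows with no gene symbol (0.0449% to 0.0743% of assigned counts) and the closing rows of unassigned reads were left out of library sizes.

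Counts were summed over the transcripts of a gene and scaled to CPM. Exon bases came from GENCODE vM39 on GRCm39, which matched 99.1% of 142434 transcript rows and may differ from the release counted. Levels were compared as log2(CPM + 1). Coding sequences of the canonical transcript, or for Cyp4a32 of the listed coding transcript, were aligned with MAFFT 7.526. Named genes were the members, genes of lists made from general knowledge, and the 10 genes outside the family with the highest r to each subset of it (Cyp4a10, Cyp4a14, Cyp4a31 and Cyp4a32, or Cyp4a12a and Cyp4a12b), among genes with a median of at least 5 CPM. The members and lists were chosen with earlier results of these data known. Statistics used Python 3.11.15, numpy 2.4.6 and scipy 1.17.1; the correlation script was tested on simulated data. Alternatives were scaling by edgeR 4.0.16 (TMM) or DESeq2 1.42.0 size factors, another pseudocount, length and transcript choice, and livers left out. Counting intervals cover counting error only. No fit of diet or genotype was made, since no column could be matched to a mouse. Some listed genes enter the counts and medians but are not reported here by name.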

Additional observations from a re-analysis of the deposited data

How the results depend on the processing

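Of 107 settings other than leaving out 1 liver, 89 moved a value by less than its error, taken as the SD over livers for a median and a jackknife error for a ratio or a correlation, or, for the 10 most similar genes, kept at least 7 of them. This error is wide for Cyp4a14, at 186 CPM for its median of 57.5 and 1193 for its ratio of 1572, so a small movement there says little. Scaling by TMM or DESeq2 size factors and a pseudocount of 0.1 CPM moved no level, ratio or correlation further than that. Taking the canonical transcript alone, also counted among the 89, could hardly move a value. Cyp4a12a and Cyp4a12b have 1 listed transcript each, and the second transcripts of Cyp4a14 and Cyp4a32 held 4 and 0 counts. Cyp4a32 has no canonical transcript among those listed, so its unchanged value is not a canonical one. With length counted over bases in exactly 1 listed transcript, the median of Cyp4a32 was 29.5 RPKM, against 15.5 with all exon bases. Without the highest and the lowest liver, highest over lowest was 280 for Cyp4a14, 4.81 for Cyp4a32, 1.83 for Cyp4a12a and 2.57 for Cyp4a12b, by construction lower. Without the 2 livers farthest from the median, r of Cyp4a14 and Cyp4a32 was 0.659.

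Leaving out 1 liver at a time, r of Cyp4a14 and Cyp4a12a ran from -0.195 to 0.108, above 0 without liver 11. That of Cyp4a32 and Cyp4a12a ran from -0.180 to 0.140, above 0 without liver 11 and, at 0.00767, without liver 20. Of the 10 genes most like the summed Cyp4a12a and Cyp4a12b, 3 remained with a median of at least 1 CPM, 2 with Spearman's rho and 1 without the 2 livers farthest from the median, a setting chosen after seeing the data, so that list depends on these choices. Of the 10 most like the other sum, 10, 7 and 9 remained. The list medians of r, also recomputed without 2 livers after seeing the data, turned in sign for Cyp4a12a without livers 11 and 20 with the omega-oxidation and peroxisomal genes (-0.0948 to 0.339), the other Cyp4 genes (-0.0165 to 0.144) and the receptors (-0.0582 to 0.126), and for Cyp4a32 without livers 5 and 19 with the male-biased genes (-0.0324 to 0.0391). With the PPARalpha-responsive genes that of Cyp4a12a moved from 0.0145 to 0.436. The labels pair no mice, so no paired analysis was made. Depth limits Cyp4a14 in the livers with 3 and 12 counts, and the counting limits Cyp4a10 and Cyp4a31 in every liver.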

Other observations

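No liver could be given to a diet or a genotype, so the levels of Cyp4a14 are given liver by liver. Cyp4a14 was at 0.396 CPM in liver 22 and 1.75 CPM in liver 19, and these are the only livers with under 5 CPM. A run of 7 livers lay between 5.46 and 12.2 CPM, with 5.46 CPM in liver 5, 8.50 in liver 2, 8.52 in liver 18, 9.06 in liver 14, 10.3 in liver 9, 11.1 in liver 8 and 12.2 in liver 15. Livers 7 and 4 followed at 27.7 and 30.8 CPM, and livers 1, 17 and 12 at 57.5, 61.5 and 62.2 CPM. Liver 23 had 123 CPM and liver 3 had 160. The 7 highest livers were number 20 at 265 CPM, 10 at 289, 11 at 364, 6 at 381, 16 at 387, 13 at 491 and 21 at 622.

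On the log2(CPM + 1) scale the values covered a range of 8.80. The widest steps between neighbouring livers were 1.23, between livers 19 and 5, and 1.12, between livers 15 and 7, which left 9 livers below and 14 above. The third was 0.98, between livers 22 and 19. With 7 livers between 5 and 20 CPM, 7 above 200 CPM and 7 between these bands, whether the values fall into clusters was not tested. For Cyp4a12a the widest step was 0.49 in a range of 1.37, and it set liver 11 apart from the other 22. For Cyp4a32 it was 0.58 in a range of 2.37, with 4 livers below it, and for Cyp4a12b 0.31 in a range of 1.55, with 3 livers below it.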
